A study of Mus musculus with 6 samples.

Results

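The day 3 library was compared directly with the day 1 library of a photothrombosis time course in the mouse cortex, without the sham library as a reference. These are 2 of the 6 libraries of the series, which also holds a sham control and libraries of day 7, day 14 and day 28. All mice were male C57/BL6J animals of 6 to 8 weeks. Stroke was induced with Rose Bengal, a dye that damages the vessel wall and clots the blood where it is lit, and with cold light for 15 minutes over the sensorimotor cortex, while the sham mice had no illumination and were taken at day 7 after the operation. RNA came from the whole cortex of the stroke side, so lesion, border and distant cortex were mixed, and the RNA of 3 mice was pooled into 1 library per group. Poly(A) RNA was sequenced with the strand kept. No difference given here has a replicate check, no test was possible, and the pooling hides how the mice differed. In such bulk RNA, more cells of a type and more RNA per cell cannot be told apart.

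In the hours after a cortical vessel is closed, neurons and glia switch on immediate early genes, stress hormones act on the whole brain, and damaged tissue releases chemokines that draw neutrophils. Over the following days microglia and incoming monocytes multiply, engulf dead cells and myelin, and load their lysosomes with lipid, while perivascular cells lay down collagen and astrocytes build a border around the core.

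The deposited values were FPKM (fragments scaled to transcript length and library size) of single transcript starts, transcript ends and splicing events. The value of a gene was taken as the largest of 3 numbers, the sum over its start events, the sum over its end events and the highest single event. It can understate a locus whose transcripts share no start or end, and it can overstate a gene that was assigned events outside its annotated span. The day 1 library listed 87962 events and 13357 genes, and the day 3 library listed 92035 events and 13800 genes. Their depth is unknown, because FPKM hides the number of reads. Ratios are given as log2((FPKM + 0.1) at day 3/(FPKM + 0.1) at day 1), a scale that understates the change of low genes, and a fold is the same ratio on a linear scale. A gene with a log2 ratio of at least 1, or of -1 or less, a 2-fold difference, is called higher or lower here, and rose and fell are used for such genes only. A gene absent from a library is called not listed. It gets no ratio of its own, because an absent value may be a failed estimate, and is taken as 0 in counts and medians: the housekeeping gene Gapdh had no value here.

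Among 12076 genes with at least 1 FPKM in either library, 1073 (8.89%) were higher and 429 (3.55%) lower at day 3. Among the 11818 of them that were listed in both libraries, 890 (7.53%) were higher and 354 (3%) lower, with a median log2 ratio of 0.03. The central 95% of these genes lay between -1.08 and 1.6. A member that reaches 1 FPKM in a single library has to differ, and when 1 FPKM was asked of both libraries, 4.41% of 10942 genes were higher and 2.12% lower. The share past the threshold depended on the level. It was 59.8% of the 443 genes whose geometric mean of both libraries was under 1 FPKM, 12.2% of the 2601 genes from 2 to 5 FPKM and 3.69% of the 407 genes of at least 100 FPKM. The scatter of day 3 against day 1 levels shows the same narrowing. The median log2 ratio also went down with level, from 0.78 under 1 FPKM to -0.21 at 100 FPKM or more.

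**Figure D1:**
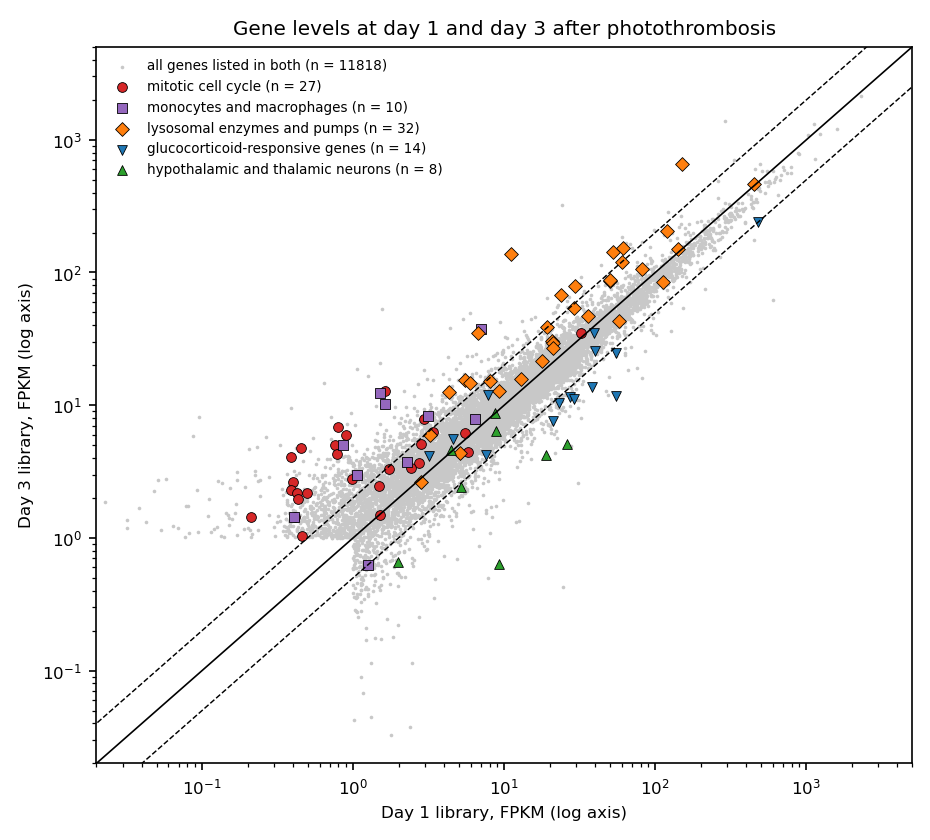
FPKM of each gene in the day 1 library (x axis, log scale) and in the day 3 library (y axis, log scale) for genes listed in both, in grey, with members of 5 gene lists in colour. The solid line marks equal levels and the dashed lines a 2-fold difference; mitotic, macrophage and lysosomal genes lie mostly above the solid line, glucocorticoid-responsive and hypothalamic genes mostly below it.

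Markers of tissue outside the cortical lesion moved between the libraries as well, and they were examined before the gene groups. Genes of hypothalamic and thalamic neurons summed to 87.8 FPKM at day 1 and 33.7 at day 3, with 26.2 to 69.1 in the other libraries. Of 14 such markers 10 were compared, 7 of them were lower and none higher. Oxt, the precursor of oxytocin, had 9.28 FPKM at day 1 and 0.637 at day 3, and Pmch, the precursor of melanin-concentrating hormone, had 26.2 and 5.13. Of the 6 with at least 1 FPKM in both libraries, 3 were lower, and the hypothalamic markers Hcrt and Agrp had no value here. Markers of the choroid plexus summed to 587 FPKM at day 1 and 266 at day 3, with 381 to 683 in the other libraries. Of the 11 compared 4 were lower, among them the thyroid hormone carrier Ttr (450 and 177 FPKM) and the folate receptor Folr1 (7.56 and 1.55). Of the 6 with at least 1 FPKM in both libraries, 2 were lower. Erythroid genes went the other way, from a sum of 247 to 477 FPKM, with 160 to 460 in the other libraries. The beta globins Hbb-bs (97.6 and 210) and Hbb-bt (33.9 and 72.9) were both higher. Cortical excitatory neurons were represented in both libraries, with Slc17a7, their vesicular glutamate transporter, at 299.8 and 248 FPKM. The part of these markers in the results below was not tested.

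The 42 gene lists spread over a wide range. Mitotic, macrophage, microglial and phagocytic genes were at the upper end, hypothalamic and glucocorticoid-responsive genes at the lower end, and neuronal, synaptic, ribosomal and oligodendrocyte genes close to the median of all genes.

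**Figure D2:**
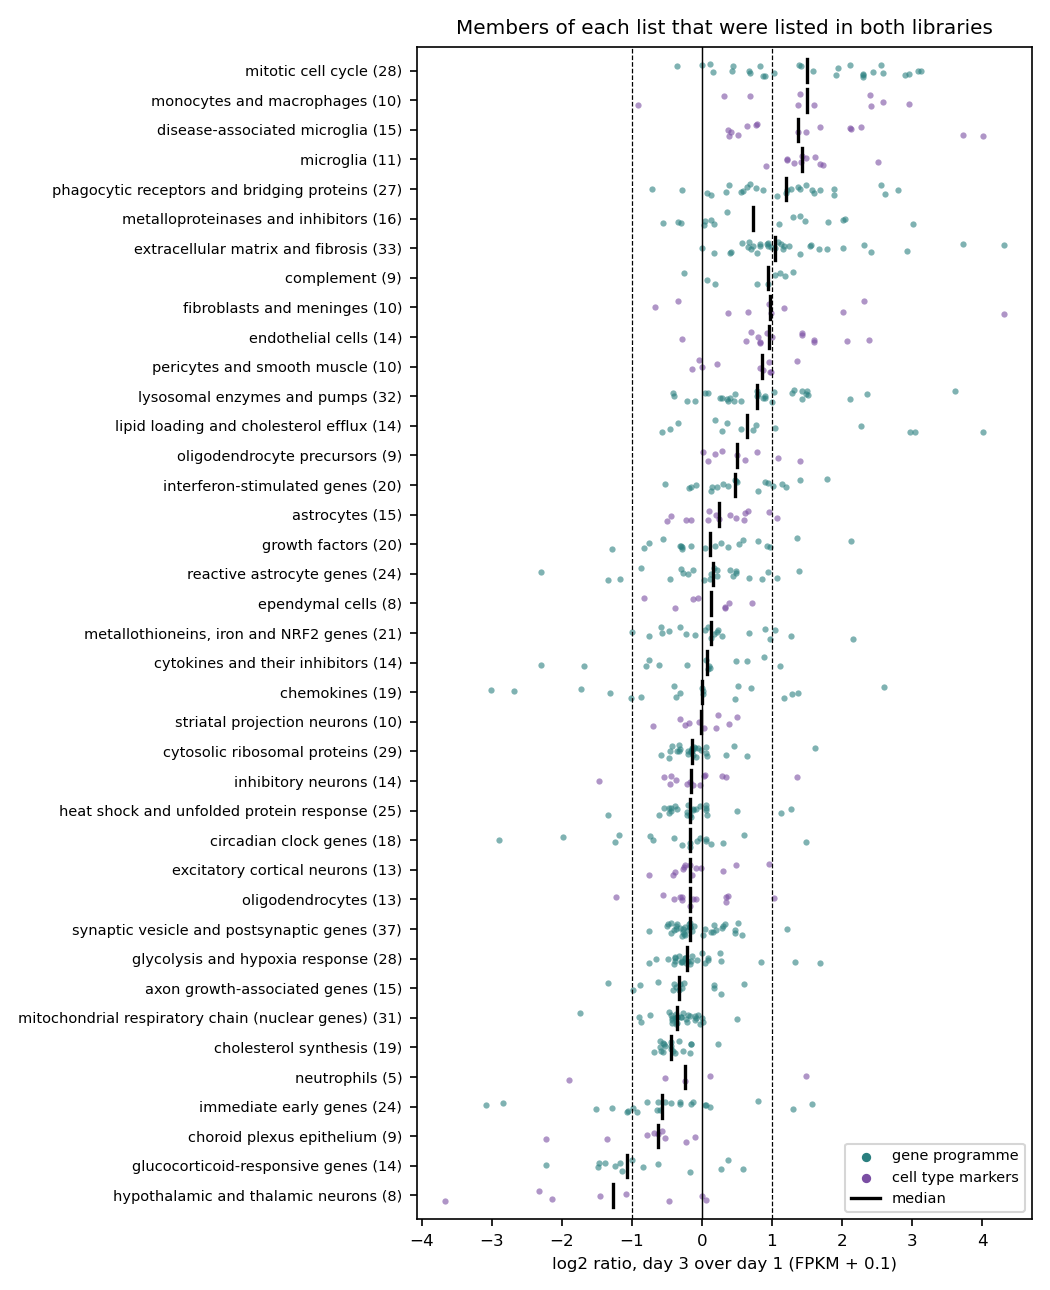
Log2 ratio of day 3 over day 1 (x axis) for each member listed in both libraries, with gene programmes in teal and cell type markers in purple; black bars are list medians, dashed lines the threshold, and the number of members plotted is in parentheses. Members of the microglia list all lie above 0, and those of the cholesterol synthesis list lie between -0.68 and 0.23.

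Most microglia markers rose. Of the 15 microglia markers 12 were compared, 11 of them were higher and none lower, with a median log2 ratio of 1.45 against 0.04 over all genes compared. Among the 10 that had at least 1 FPKM in both libraries, 9 were higher. P2ry12, the ADP receptor of resting microglia, had 18.0 FPKM in sham and then 7.01, 21.7, 17.7, 13.3 and 15.6 on days 1, 3, 7, 14 and 28, so that the day 1 library was the lowest of all 6. Gpr34, a lysophosphatidylserine receptor, had the same order at the low end, with 2.18 FPKM at day 1 and 6.94 to 15.6 in the other libraries. Csf1r, the receptor that keeps microglia and macrophages alive, went from 21.6 to 50.4 FPKM (log2 ratio 1.22), and Fcrls from 19.2 to 63.9 (1.73). Siglech, at 5.39 and 10.3 FPKM, was the member compared that did not reach the threshold (0.92). The markers Tmem119 and Cx3cr1 were not usable, since Tmem119 was listed in neither library and Cx3cr1 at day 1 alone of the pair, at 0.098 FPKM.

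Markers of monocytes and macrophages were higher as well. Of 17 such markers 12 were compared, 9 were higher and none lower, with a median of 2.00, and of the 7 with at least 1 FPKM in both libraries 5 were higher. Over the 10 listed in both libraries the median was 1.5. Adgre1, the gene of the F4/80 antigen, had 1.61 FPKM at day 1 and 10.2 at day 3 (log2 ratio 2.58). F13a1, a coagulation factor made by macrophages, had 0.858 and 4.98 FPKM. Arg1, the arginase of alternatively activated macrophages, had its highest value in the day 3 library, 12.5 FPKM, against 1.51 in the day 1 and 1.11 in the day 7 library, and was not listed in the other 3. Cd5l, a secreted protein of macrophages, was not listed at day 1 and had 6.29 FPKM at day 3. The chemokine receptor Ccr2 of inflammatory monocytes stayed at 0.199 and 0.14 FPKM, under the filter, and S100a4, at 6.36 and 7.92, did not reach the threshold.

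Receptors and enzymes for the uptake and digestion of debris followed the same direction. Of the 27 phagocytic receptors and bridging proteins compared, out of 30, 15 were higher and none lower, with a median of 1.20, and 12 of the 24 with at least 1 FPKM in both libraries were higher. The scavenger receptors were among the largest, with Cd36 at 0.464 and 3.82 FPKM (log2 ratio 2.80), Msr1 at 0.589 and 3.96 (2.56) and Stab1 at 2.93 and 18.5 (2.62). Cd36 and Msr1 reached 1 FPKM at day 3 only and so had to differ. Trem2, a lipid-sensing receptor of microglia, rose from 10.1 to 32.6 FPKM and its adaptor Tyrobp from 31.6 to 82.0. The receptor tyrosine kinases of apoptotic cell clearance did not reach the threshold: Axl had 11.6 and 15.2 FPKM, Mertk 7.86 and 11.8, and Tyro3, largely a neuronal gene, 47.0 and 38.6. The bridging proteins Gas6 (27.6 and 29.1) and Mfge8 (49.4 and 53.9) were near equal.

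Of the 32 lysosomal genes compared, out of 34, 11 were higher and none lower, and 28 had a ratio above 0. All 32 had at least 1 FPKM in both libraries. Lyz2, the lysozyme of myeloid cells, rose from 11 to 137 FPKM (log2 ratio 3.62), a 12.3-fold difference. The cysteine proteases Ctsh (6.69 and 34.8), Ctss (52.8 and 143) and Ctsz (29.4 and 79.6) rose, as did the lysosomal lipase Lipa (4.33 and 12.6) and progranulin, Grn (23.9 and 68.1). The membrane protein Lamp1 and the saposin precursor Psap did not reach the threshold, with Lamp1 at 140 and 150 FPKM and Psap at 453 and 467. The glucosidase gene Gaa (57.4 and 43.5) had a ratio below 0.

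Genes of lipid storage and export were higher in part, and none of cholesterol synthesis passed the threshold. Plin2, the coat protein of lipid droplets, had 1.37 FPKM in sham and then 5.34, 44.6, 44.7, 11.9 and 1.90 on days 1, 3, 7, 14 and 28. Day 3 and day 7 stood apart from the other 4 libraries. Abca1, the pump that loads cholesterol onto lipoproteins, had 1.65 FPKM at day 1 and 13.6 at day 3 (log2 ratio 2.97), and Soat1, which esterifies cholesterol for storage, had 3.04 and 6.39 (1.05). Apoe, the main lipoprotein of the brain, had 287 FPKM at day 1 against 1386 at day 3, the largest difference in FPKM of any gene named here. Its value at day 1 was the lowest of the 6 libraries, and sham had 716. Of the 14 genes of this list compared, 5 were higher and none lower, with a median of 0.64, while Abcg1 (11.3 and 13.8) did not reach the threshold. All 19 enzymes and regulators of cholesterol synthesis compared were within the threshold. Of these, 18 had a ratio below 0, with a median of -0.44, against 47.4% of all genes compared. Hmgcs1, the synthase at the start of the mevalonate pathway, had 82.5 and 56.0 FPKM (log2 ratio -0.56), and the squalene epoxidase Sqle 25.4 and 15.8 (-0.68).

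Spp1 and Gpnmb, of the disease-associated microglia programme, were among the 15 largest ratios that held in all ways of building the gene value. Spp1 (osteopontin, chr5:104435118-104441050 in GRCm38, plus strand) had 24.3 FPKM at day 1 and 323 at day 3, a 13.3-fold difference, and went on to 783 at day 7. Gpnmb, a lysosomal and surface glycoprotein on chr6:49036546-49070929, had 1.06 and 18.6 FPKM (log2 ratio 4.01) and 68.9 at day 7. Igf1, the insulin-like growth factor, had 0.575 and 2.84 FPKM (2.12) and 11.2 at day 7. Cst7 and Clec7a were not listed at day 1 and had 2.95 and 2.20 FPKM at day 3. Of the 17 genes of this list compared, out of 18, 10 were higher and none lower, as were 7 of the 14 with at least 1 FPKM in both libraries. All 17 had a ratio above 0, against 52.6% of all genes compared.

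Genes of cell division were higher in part, most of them with under 1 FPKM at day 1. Of the 40 mitotic cell cycle genes 34 were compared, and 23 of them were higher and none lower, with a median of 2.03. Of the 34, 21 reached 1 FPKM at day 3 only and so had to differ, and among the 13 that reached it in both libraries 2 were higher, with a median of 0.67. Over the 28 listed in both libraries the median was 1.5. Top2a, the topoisomerase that untangles chromosomes before division, had 0.786 FPKM in sham and then 1.64, 12.8, 4.07, 1.87 and 0.549 on days 1, 3, 7, 14 and 28. The day 3 library was the only one above 5 FPKM. Regulators of mitotic exit rose in the same way, with the ubiquitin-conjugating enzyme Ube2c at 0.788 and 6.80 FPKM (log2 ratio 2.96) and the activator Cdc20 at 0.391 and 4.08 (3.09), though by start sums alone Cdc20 did not reach the threshold. The kinases Plk1 (0.424 and 2.17) and Cdk1 (0.499 and 2.17), the proliferation antigen Mki67 (0.402 and 2.64) and the survivin gene Birc5 (0.782 and 4.26) rose as well. Ccnb1, cyclin B1, was not listed at day 1 and had 3.84 FPKM at day 3. Most genes of DNA replication named here did not reach the threshold. The subunits of the replicative helicase, Mcm2 to Mcm7, had log2 ratios between 0.16 and 0.90, and the clamp Pcna, at 32.1 and 34.7 FPKM, had 0.11, while the ribonucleotide reductase subunit Rrm2 rose from 0.901 to 5.93 (2.59). Ccne1, a cyclin of the start of S phase, had 5.75 and 4.46 FPKM.

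The promoters of 4 of these genes are printed because mitotic genes are known to share a pair of short elements near their start sites, the CHR element (TTTGAA) and the CCAAT box. Both were searched on both strands in 250 bases before to 50 bases after each RefSeq start site (build GRCm38.p6), and overlaps were allowed. Capitals mark the matches, on the minus strand as TTCAAA and ATTGG, and each sequence runs 5′ to 3′ on the strand of its gene. The windows are chr11:99024140-99024439 (minus strand) for Top2a, chr2:164769679-164769978 (plus) for Ube2c, chr4:118437294-118437593 (minus) for Cdc20 and chr12:24708004-24708303 (plus) for Rrm2.
Top2a: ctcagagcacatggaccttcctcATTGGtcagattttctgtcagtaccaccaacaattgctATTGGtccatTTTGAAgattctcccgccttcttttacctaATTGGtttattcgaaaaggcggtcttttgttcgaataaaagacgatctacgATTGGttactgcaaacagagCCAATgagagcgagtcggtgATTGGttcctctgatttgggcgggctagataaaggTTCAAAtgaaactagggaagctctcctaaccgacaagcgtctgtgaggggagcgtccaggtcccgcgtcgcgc
Ube2c: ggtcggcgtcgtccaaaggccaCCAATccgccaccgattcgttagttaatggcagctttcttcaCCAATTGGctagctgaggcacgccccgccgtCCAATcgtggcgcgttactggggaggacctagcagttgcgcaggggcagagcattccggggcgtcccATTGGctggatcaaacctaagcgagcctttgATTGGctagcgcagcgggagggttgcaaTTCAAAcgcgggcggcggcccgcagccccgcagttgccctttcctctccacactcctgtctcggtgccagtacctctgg
Cdc20: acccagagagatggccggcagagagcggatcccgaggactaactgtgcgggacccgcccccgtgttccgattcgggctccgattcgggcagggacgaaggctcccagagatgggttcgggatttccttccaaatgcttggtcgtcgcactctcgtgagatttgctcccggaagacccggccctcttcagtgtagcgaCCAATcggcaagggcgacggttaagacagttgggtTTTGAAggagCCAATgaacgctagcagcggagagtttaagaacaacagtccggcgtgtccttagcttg
Rrm2: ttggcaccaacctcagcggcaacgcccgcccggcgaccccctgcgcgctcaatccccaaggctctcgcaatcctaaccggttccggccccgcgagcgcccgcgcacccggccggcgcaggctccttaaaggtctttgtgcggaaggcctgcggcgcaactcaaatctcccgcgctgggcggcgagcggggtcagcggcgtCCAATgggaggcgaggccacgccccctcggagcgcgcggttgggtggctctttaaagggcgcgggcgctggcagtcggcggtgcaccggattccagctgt
Top2a held 2 CHR and 6 CCAAT matches, Ube2c 1 and 6, with a pair of CCAAT matches on opposite strands that overlap, Cdc20 1 and 2, and Rrm2, which acts in DNA synthesis, none and 1. Of the 23 mitotic genes that were higher, 20 matched the promoter table, and 12 of these (60.0%) held CHR, 16 (80.0%) CCAAT and 12 (60.0%) both. Over the 29 mitotic genes compared that matched, whatever their ratio, the shares were 48.3%, 75.9% and 44.8%. Among all 9318 genes compared that matched, 13.5% held CHR, 42.8% CCAAT and 5.54% both, and among all 32851 promoters searched 17.9%, 37.4% and 6.95%. A match is a description of the letters and shows no binding.

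A part of the matrix and scar genes rose. Of the 34 extracellular matrix genes compared, out of 35, 18 were higher and none lower, and all 34 had a ratio above 0. Among the 28 with at least 1 FPKM in both libraries 12 were higher, with a median of 0.95. The fibrillar collagen Col3a1 (chr1:45311538-45349706 in GRCm38) had 0.639 FPKM at day 1 and 14.6 at day 3 (log2 ratio 4.31), the largest ratio of any matrix gene listed in both libraries. Col1a1 had 3.07 and 15.7 FPKM, Col1a2 5.70 and 23.4, and fibronectin, Fn1, 6.97 and 37.7. In sham these 4 genes had 1.04, 2.46, 6.90 and 9.76 FPKM, close to or above their day 1 values. The basement membrane collagens did not reach the threshold, with Col4a1 at 6.21 and 12.1 (0.95) and Col4a2 at 6.6 and 10.5 (0.67). Sparc, a matrix-binding glycoprotein, was high in both libraries, at 171 and 193 FPKM.

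Of the 17 metalloproteinases, plasminogen activators and inhibitors compared, out of 23, 9 were higher and none lower, but 3 of the 11 with at least 1 FPKM in both libraries were, with a median of 0.13, and with the end sums alone 4 of 10 were. Plau, the urokinase gene, had 0.937 and 4.09 FPKM (log2 ratio 2.01), and Adam8, a protease of activated leukocytes, 2.03 and 7.33 (1.80). The inhibitor Timp1 was near equal, at 16.2 and 16.5 FPKM, after 0.278 in sham. Fibroblast and meningeal markers had a median of 0.98, with 4 of 10 higher, among them the 3 fibrillar collagen genes just given. The meningeal transporters Slc6a13 (3.82 and 7.55 FPKM) and Slc22a6 (1.22 and 2.52) lay just under the threshold, and Ptgds, a prostaglandin synthase abundant in the meninges, had 1132 and 711 (-0.67).

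Endothelial markers were higher in part. Of 15 compared, out of 16, 7 were higher and 1 lower, and 4 of the 11 with at least 1 FPKM in both libraries were higher. Slco1a4, an organic anion transporter of the blood-brain barrier, had 11.5 FPKM in sham and then 2.68, 14.5, 10.02, 11.1 and 11.2 on days 1, 3, 7, 14 and 28, so that day 1 stood apart from the other 5 libraries. The receptor kinases of the angiopoietin system showed the same low day 1, with Tie1 at 0.474 and 2.32 FPKM (log2 ratio 2.08) and Tek at 0.827 and 2.70, where sham had 1.56 and 1.86. The efflux pump Abcb1a (2.44 and 6.72) rose too. The tight junction claudin Cldn5 had a value in the day 1 library alone, 1.03 FPKM, and the glucose transporter Slc2a1, at 25.4 and 20.9, did not reach the threshold. Pericyte and smooth muscle markers had a median of 0.86 with 1 of 10 higher, among them Pdgfrb at 2.16 and 4.33 FPKM (0.97) and Rgs5 at 12.7 and 23.4 (0.88), which did not reach the threshold.

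Astrocyte genes passed the threshold in both directions. Gfap, the intermediate filament of reactive astrocytes, had 85.8 FPKM in sham and then 330, 698, 422, 380 and 150 on days 1, 3, 7, 14 and 28 (log2 ratio of day 3 over day 1 1.08), and Vim, its partner filament, had 64.2 and 167 (1.38). Both were highest at day 3. Other genes of the reactive state did not reach the threshold, with Lcn2 at 15.5 and 16.9 FPKM, the hyaluronan receptor Cd44 at 4.01 and 5.33 and Emp1 at 5.48 and 6.05. Ptx3, a secreted pattern recognition protein, fell from 9.83 to 1.92 FPKM (-2.30), and the small heat shock gene Hspb1 from 23.9 to 9.43 (-1.33). Over the 24 reactive astrocyte genes compared, out of 26, 2 were higher (8.33%) and 3 lower (12.5%). Of all genes compared, 8.89% were higher and 3.55% lower. Of the 15 astrocyte markers Gfap was the 1 that was higher, and none was lower. The water channel Aqp4 had 26.0 and 50.6 FPKM (0.96) and the glutamate transporter Slc1a2 148 and 234 (0.66).

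Immediate early genes parted into several patterns. Of the 30 genes 24 were compared, 6 were lower and 2 higher, and 18 had a ratio below 0, with a median of -0.56. Among the 22 with at least 1 FPKM in both libraries 5 were lower and 1 higher. Fosb, an AP-1 subunit, had 1.05 FPKM in sham and then 11.9, 1.33, 1.20, 2.12 and 2.37 on days 1, 3, 7, 14 and 28 (log2 ratio of day 3 over day 1 -3.08). Maff, a small Maf factor, had 6.84 FPKM at day 1 and 0.867 at day 3 (-2.84). For both, day 1 stood apart from every other library. Gadd45b, a stress sensor, fell from 20.6 to 7.17 FPKM, and Bdnf, the neurotrophin induced by activity, from 12.2 to 4.99. Fos, at 16.1 and 8.44 FPKM (-0.92), and Atf3, at 5.89 and 2.94 (-0.98), did not reach the threshold. The activity gene Arc went the other way, from 15.1 to 44.9 FPKM (1.57), with 17.6 in sham and 52.0 at day 28. Egr1 had 30.4 and 31.7 FPKM and Nr4a1 15.3 and 12.3, near equal. Jun, Junb, Ier2 and Btg2 had no value here. The cyclic AMP response element (TGACGTC) was in the promoters of 1 of the 6 genes that fell, all matched, and of 5 of the 20 genes of the list that were compared and matched (25%), against 6.21% of all genes compared, and the AP-1 element (TGACTCA) in none of the 20, against 4.34%.

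Glucocorticoid-responsive genes were lower in part. All 15 were compared, 8 of them were lower and none higher, with a median of -1.13, and 7 of the 14 with at least 1 FPKM in both libraries were lower. With the end sums alone 2 of 10 were lower, and 5 of 12 were when all ways of building the gene value had to give the same call. Cdkn1a, the cell cycle inhibitor p21, had 3.85 FPKM in sham and then 55.3, 11.7, 10.1, 10.3 and 8.21 on days 1, 3, 7, 14 and 28. The day 1 library was the highest by far. The feedback gene Fkbp5 had 23.2 and 10.3 FPKM (log2 ratio -1.16), the kinase gene Sgk1 54.5 and 24.8 (-1.13) and Tsc22d3, which encodes the leucine zipper GILZ, 38.3 and 13.7 (-1.48). Errfi1 (21.2 and 7.59) and the NF-kappaB inhibitor Nfkbia (28.9 and 11.1) fell too, while the metallothionein Mt2, at 475 and 239 (-0.99), lay just inside the threshold. Pdk4 (3.18 and 4.17) and Mertk, also in this list, had ratios above 0. The hypothalamic markers moved in the same direction, from a sum of 87.8 to 33.7 FPKM.

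Of the 18 circadian clock genes compared, out of 20, 4 were lower and 1 higher. Ciart had 14.3 and 1.83 FPKM (log2 ratio -2.89), the nuclear receptor Nr1d1 32.2 and 8.04 (-1.99), Bhlhe40 32.8 and 14.5 (-1.18) and Per1, which glucocorticoids also induce, 27.2 and 11.4 (-1.24). Clock itself rose from 4.08 to 11.6 FPKM (1.48). Per2 (5 and 4.92), Nr1d2 (14.8 and 13.2) and Tef (66.8 and 63.5) were near equal, and the hour at which the mice were taken is not given in the sources used here. The cause of these differences was not tested.

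Chemokines split evenly. Of 25, 19 were compared, 5 were lower and 4 higher, with a median log2 ratio of 0.00, and of the 15 with at least 1 FPKM in both libraries 2 were lower and 3 higher. The neutrophil attractants Cxcl1 (2.72 and 0.252 FPKM) and Cxcl2 (1.97 and 0.222, log2 ratio -2.68) fell most. The monocyte attractants Ccl2 (5.24 and 2.06), Ccl7 (1.98 and 0.938) and Ccl12 (12.7 and 3.78) fell as well. Higher at day 3 were Ccl8 (0.15 and 1.42 FPKM), Cxcl12 (2.05 and 5.15), Cxcl16 (1.03 and 2.45) and Pf4 (3.14 and 8.28), the last a platelet and macrophage gene. Ccl3 (3.78 and 2.84) and Ccl4 (2.53 and 1.93) did not reach the threshold, and Cx3cl1, the neuronal ligand of microglia, had 130 FPKM in both libraries. Of the cytokines, Tgfb1 rose from 3.22 to 7.07 FPKM (1.11), whereas Il1b, at 1.16 and 0.626, did not reach the threshold and Tnf and Il6 stayed under the filter in both libraries.

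Neutrophil markers were few. Of 16 markers 7 were compared, 3 were lower and 1 higher, and of the 4 with at least 1 FPKM in both libraries 1 was lower and 1 higher. Their sum was 39.7 FPKM at day 1 and 25.9 at day 3. Lcn2, given above with the reactive astrocyte genes, is also in this list and made up most of the day 3 sum. S100a8 had 6.18 FPKM at day 1 and 1.59 at day 3, and S100a9 had 10.1 at day 1 and was not listed at day 3. The granule genes Camp and Ltf were listed in neither library, and Ly6g, Elane and Mpo had no value here. Csf3r, the receptor of granulocyte colony-stimulating factor, which microglia and monocytes can also carry, rose from 1.37 to 4.03 FPKM (log2 ratio 1.49). Lymphocyte genes were near absent, with 2 of 20 at 1 FPKM or above.

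Of the 10 complement genes compared, out of 20, 5 were higher and none lower. Among the 8 with at least 1 FPKM in both libraries 4 were higher. The 3 chains of C1q, the recognition protein of the classical pathway, rose alike, C1qa from 61.4 to 152 FPKM (log2 ratio 1.30), C1qb from 69.9 to 152 (1.12) and C1qc from 33.2 to 68.7 (1.05). C3, the central component, was not listed at day 1 and had 1.32 FPKM at day 3, while clusterin, Clu, was abundant and level, at 548 and 579. Of the 20 interferon-stimulated genes compared, out of 30, 5 were higher and none lower, with a median of 0.48. The letters GAAANNG, part of the interferon response element, were on either strand of the promoters of 12 of the 14 that matched (85.7%), against 53.4% of all genes compared, 80.0% of 25 lysosomal genes and 5 of the 6 immediate early genes that fell. Of the 3 interferon-stimulated genes that were higher and matched, 2 held them. Among the 16 interferon-stimulated genes with at least 1 FPKM in both libraries 3 were higher. Ifi27l2a had 1.6 and 5.74 FPKM (1.78) and the tetherin gene Bst2 4.55 and 10.6 (1.20). Ifit3, at 6.16 and 7.21, did not reach the threshold, and was higher at day 7 than at day 3, at 15.2.

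Of the 21 metallothionein, iron and NRF2 genes compared, out of 24, 3 were higher and none lower. Hmox1, the haem oxygenase, had 2.20 FPKM in sham and then 27.0, 65.2, 19.7, 8.6 and 3.63 on days 1, 3, 7, 14 and 28 (log2 ratio of day 3 over day 1 1.27). It peaked at day 3. The iron exporter Slc40a1 rose from 0.792 to 3.87 FPKM (2.16), and Ftl1, the ferritin light chain, had 262 and 490 (0.90), under the threshold but among the 5 largest gains in FPKM. The globin genes rose between the same libraries, as given above.

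Most neuronal, synaptic and metabolic genes stayed within the threshold. Of the 37 synaptic genes compared, out of 38, 1 was higher and none lower, with a median of -0.17. The presynaptic genes Syp (473 and 339 FPKM), Snap25 (670 and 495) and Rab3a (139 and 103) were below 0, while Grin2b (8.38 and 11.7) and Bsn (9.94 and 14.8) were above it. The exception was Stx1a, a syntaxin of vesicle fusion, at 26.1 and 61.0 FPKM (log2 ratio 1.22), where day 1 was the lowest library and sham had 83.1. None of the 13 excitatory neuron markers compared passed the threshold, among them the deep layer factors Tbr1 (18.5 and 14.1 FPKM) and Fezf2 (8.61 and 7.19). Of the 14 inhibitory neuron markers compared, Calb2 fell from 27.3 to 9.78 FPKM and Reln rose from 1.95 to 5.13, and the others, Gad1 (82.2 and 60.6) and Pvalb (43.6 and 37.8) among them, did not reach the threshold. Of the 13 oligodendrocyte markers compared, Mag fell (62.6 and 26.8) and Ugt8a rose (6.56 and 13.5). Respiratory chain genes had a median of -0.35 with 28 of 31 below 0 and 1 called, Ndufb5 (85.2 and 25.4). With the trend of the ratio with transcript length removed, their median was -0.18. All genes with a geometric mean of 50 to 100 FPKM had a median of -0.19. The part of level and length in the respiratory chain median was not tested. Glycolysis genes had a median of -0.21 with 2 of 28 higher, the monocarboxylate exporter Slc16a3 (0.796 and 2.80) and the hexokinase Hk2 (1.06 and 2.81).

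The counts of the other lists stand beside 8.89% of all genes compared that were higher and 3.55% that were lower. The share higher was 14.3% for growth factors, 22.2% for oligodendrocyte precursors, 8% for heat shock genes and 3.45% for ribosomal protein genes. The share lower was 12.5% for axon growth genes, 14.3% for cytokines and 4% for heat shock genes. Of 25 heat shock and unfolded protein genes compared, 2 were higher, Hmox1 and the secreted survival factor Manf (7.43 and 16.4 FPKM), and Hspb1 was lower, while the chaperone Hspa5 had 133 and 118. Of 16 axon growth genes none was higher and 2 were lower, Hspb1 and the neuropeptide gene Gal, which was not listed at day 3, and the growth cone gene Gap43 had 132 and 111 FPKM. Of 21 growth factors 3 were higher, among them Igf1 and Vegfc (0.472 and 1.37), and Bdnf was lower. Among the 18 with at least 1 FPKM in both libraries none was higher. Of 14 cytokines and their inhibitors compared, 1 was higher and 2 lower. Of 9 markers of oligodendrocyte precursors 2 were higher, the sialidase Neu4 (1.27 and 2.82) and the proteoglycan Vcan (1.06 and 2.96). Of 29 ribosomal protein genes Rpl30 was higher (60.2 and 186). None of the 10 markers of striatal projection neurons, the 8 of ependymal cells or the 4 of endothelial activation passed the threshold, the adhesion molecules Vcam1 (9.06 and 12.9) and Icam1 (2.66 and 3.00) among the last.

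The genes with the largest ratios that held in all ways of building the value were of several kinds. Beside Col3a1, Gpnmb, Spp1 and Lyz2 they included Zdhhc22, a palmitoyltransferase gene, which had 0.387 FPKM at day 1, 9.46 at day 3 and 0.456 to 0.94 in the other 4 libraries, so that day 3 alone stood apart. They also included Pimreg, a mitotic regulator (0.171 and 2.75 FPKM), and Cd33, a sialic acid receptor of myeloid cells (0.17 and 3.14). For others the day 1 library was the one apart. Igsf9b, a synaptic adhesion gene and the largest ratio of all (4.99), had 6.23 FPKM in sham and then 0.0872, 5.86, 3.90, 3.81 and 1.28 on days 1, 3, 7, 14 and 28. Hmgn2, a nucleosome-binding protein, had 1.5 FPKM at day 1 and 19.2 to 24.2 in the other libraries, and Pgap1, an enzyme of GPI anchors, had 0.0577 at day 1 and 2.38 to 3.62. At the other end, Cdkn2d, the cell cycle inhibitor p19, had the smallest ratio (-5.55), with 24.3 FPKM at day 1 and 0.423 at day 3. It went up and down between libraries, with 0.777 FPKM in sham and 19.4 at day 14. Wnt10b, a Wnt ligand, had 1.84 and 0.179 FPKM, and Traf3ip2, an adaptor of interleukin-17 signalling, 2.44 and 0.114.

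Genes listed in a single library of the pair numbered 183 at day 3 only and 75 at day 1 only, with medians of 1.58 and 1.67 FPKM. Of these, 5 and 11 had at least 5 FPKM. Rin1, a neuronal regulator of Ras signalling, shows why no ratio is given: it was not listed at day 3 alone, with 8.69 to 10.4 FPKM in the other 5 libraries. Ifi30, a lysosomal thiol reductase, had a value at day 3 only, 5.89 FPKM, and Tspyl4 at day 1 only, 83.2. The largest losses in FPKM among genes listed in both were those of Ppia, Ptgds, Mbp, Ttr and Mt1. Ppia, cyclophilin A, had 601 FPKM at day 1 and 62.2 at day 3. It had 498 in sham and 121, 713 and 131 on days 7, 14 and 28. With the start sums alone Ppia was counted as higher at day 3, because it had no start value at day 1. Mbp, the myelin basic protein, had 1591 and 1205 (log2 ratio -0.40), but with the end sums alone its log2 ratio was 2.20.

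Some of these differences went on to day 7 and others turned back. Day 7 was compared with day 3 in the same way, and the 2 comparisons share the day 3 library. Of 12178 genes, 392 (3.22%) were higher and 342 (2.81%) lower at day 7, fewer than between day 1 and day 3. Lyz2 had 137 FPKM at day 3 and 357 at day 7, and Spp1 and Gpnmb also had larger values at day 7. Col3a1 had 14.6 and 21.6 FPKM and Plin2 44.6 and 44.7. Top2a, Arg1 and Gfap had smaller values at day 7 than at day 3, as given above, while Fosb and Cdkn1a stayed near their day 3 level and Cxcl1 was not listed.

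**Figure D3:**
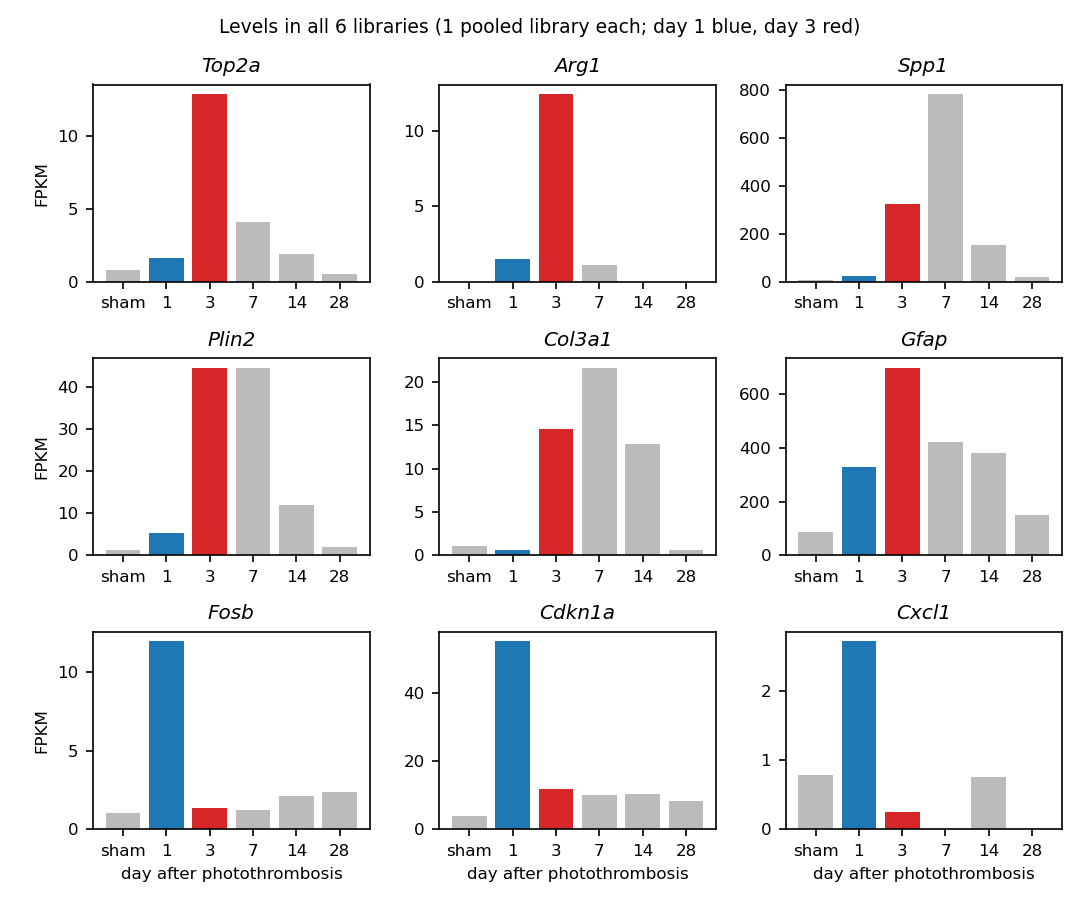
FPKM (y axis, from 0) of 9 genes in the sham, day 1, 3, 7, 14 and 28 libraries (x axis), each bar 1 pooled library with no error bar, day 1 in blue and day 3 in red. Top2a, Arg1 and Gfap are highest at day 3 (12.8, 12.5 and 698), Spp1 and Col3a1 at day 7 (783 and 21.6), and Fosb, Cdkn1a and Cxcl1 at day 1 (11.9, 55.3 and 2.72).

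Longer transcripts tended to have higher ratios. The median length of the longest transcript was 3638.5 nt for genes higher at day 3, 2469 nt for those lower and 3434 nt for all genes compared. With the genes cut into 4 equal groups by that length, the median log2 ratio went from -0.11 in the shortest group to 0.19 in the longest. The Spearman rho across 11812 genes listed in both libraries was 0.22, given as a description since genes in 2 libraries are not independent. Many collagens are long and many peptide and chemokine genes short, and the trend has the direction of the collagen and peptide results. Its part in them was not tested. With the trend removed 1052 genes were higher and 416 lower. The median was then 0.94 for matrix genes (1.07 as reported) and -1.72 for hypothalamic and thalamic neurons (-1.79). For chemokines it was 0.04 (0.00 as reported).

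**Figure D4:**
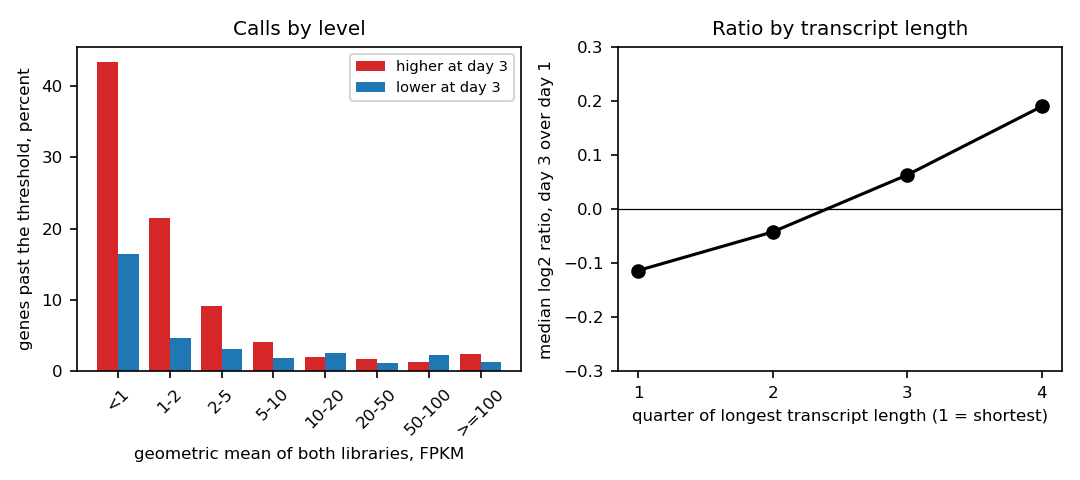
Left, the share of genes past the threshold (y axis, percent) by the geometric mean of both libraries (x axis, FPKM), higher in red and lower in blue. Right, the median log2 ratio of day 3 over day 1 (y axis) by length of the longest transcript in 4 equal groups (x axis); the shares are largest under 1 FPKM, and the median goes from -0.11 to 0.19.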

How the data were processed

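Poly(A) RNA libraries of the ipsilateral cortex were made by the authors from the pooled RNA of 3 mice per group. The submitters' processing notes name Trimmomatic 0.30, HISAT2 2.0.1, HTSeq 0.6.1 and mm10, and the tool that made the deposited event values is not given in the sources used here. The deposited values are FPKM of single events (transcript starts, transcript ends and splicing events), scaled by the authors for length and number of fragments. They carry no read counts, and no interval or floor is given.

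Events were made unique by their identifier and joined to genes by the assigned Ensembl identifier. Symbols, spans, gene types and lengths came from GENCODE M21 (GRCm38). The gene value, the filter (1 FPKM in either library), the pseudocount (0.1) and the log2 threshold (1) are those given with the results. With 1 library per group no test was run. Of 847 genes in 42 lists (23 programmes, 19 cell type lists), 845 were in the annotation, 668 were compared and 101 were listed in no library. Lists with under 5 compared genes at the reported settings get no median. Named are the 15 largest and 15 smallest ratios that were past the threshold in the same direction with the start sum, the end sum and the events inside the annotated span, the 10 highest genes listed in a single library, the 5 largest FPKM differences in each direction, and list members, of which those described were chosen after their values were seen. Genes with most of their value outside their span are given no value. Some genes of the lists and of the naming rule are not reported here. The comparison and the lists were chosen with earlier results of these data known. Promoters came from RefSeq (GRCm38.p6) and 5 short motifs were searched.

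The alternatives varied the pseudocount, filter, scaling, gene value, length trend, gene type and threshold. Scripts were tested on simulated data. Python 3.11.15, pandas 2.3.3, NumPy 2.4.6, SciPy 1.17.1 and matplotlib 3.10.9 were used.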

Additional observations from a re-analysis of the deposited data

How the results depend on the processing

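The counts of genes higher and lower at day 3, 1073 and 429 as reported, depended on how low values were treated. They were 627 and 259 with a pseudocount of 1, 1918 and 927 with no filter, 325 and 203 with at least 5 FPKM in either library, and 342 and 119 at a log2 threshold of 2. When the start sum, the end sum and the events inside the span all had to pass in the same direction, an alternative chosen after seeing the data, they were 660 and 238. Upper quartile scaling moved the median of all genes to 0.13. Of 520 medians, those of 39 lists and of all genes under 13 settings, 506 stayed within the spread allowed and 14 moved, and no median past the threshold changed sign. In 6 lists with reported medians between -0.17 and 0.19 the sign changed in 15 values, which lay between -0.26 and 0.34: chemokines, cytokines, growth factors, ribosomal proteins, oligodendrocytes and striatal neurons. The median of all genes went from 0.04 to -0.04 with at least 5 FPKM. With a pseudocount of 1 the median was 1.06 for mitotic genes, 1.35 for monocytes and macrophages and -1.12 for hypothalamic neurons. With at least 5 FPKM it was 0.88 for mitotic, 1.20 for interferon-stimulated and 0.16 for metalloproteinase genes, and, over 3 genes each, -1.90 for neutrophils and -1.35 for the choroid plexus. The start sums alone gave 2.96 for mitotic genes and -2.87 for 4 neutrophil genes, and the end sums 0.16 for metalloproteinases, -0.40 for glucocorticoid-responsive genes and 2.96 for monocytes and macrophages. With genes listed in both libraries only and the length trend removed, also chosen after seeing the data, hypothalamic neurons had -1.19 and 4 of 8 of their markers were lower. With the start sums 6 of 7 microglia markers were higher, fewer because fewer were compared. Of 2328 values of the 186 named genes counted, 85 moved. Among these genes 1 that had passed the threshold reversed, Ppia, with a log2 ratio of 9.28 by start sums. The lysosomal enzyme gene Ctsd, among the 5 largest gains in FPKM but not described above, changed sign too. It had 151 FPKM at day 1 and 655 at day 3. Its log2 ratio was 2.12 as reported and -0.32 by start sums, which is within the threshold. The other causes were not tested. No paired analysis was possible because each group is 1 pooled library, and leaving out a replicate was not possible for the same reason. FPKM hides the depth of each library, so the counting error of low genes is unknown.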
